A study of Mus musculus with 18 samples.

Results

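This account covers 10 genes that make, break down or sense prostaglandins in mouse skin, namely Ptgs1, Ptgs2, Ptges, Ptgds, Ptgis, Hpgd, Ptger1, Ptger2, Ptger3 and Ptger4. They were chosen by symbol, and all 10 were found among the 14521 named genes of the expression table. RNA was sequenced from 6 female littermates of the SKH-1E Hairless strain, an immune-competent outbred strain in which ultraviolet light readily causes skin tumours. From every animal came 1 library each of chronically irradiated skin outside lesions (CHR), of a benign papilloma (PAP) and of a squamous cell carcinoma of the skin (SCC), which made 18 libraries with n = 6 per tissue. The mice are known here by their label numbers 2, 3, 7, 8, 9 and 10. The strain lacks a working Hairless gene, a loss that all 3 tissues share. Irradiation began at 3 months of age and had ended some days before the tissues were taken. CHR, the comparison tissue, had received the same ultraviolet dose as the tumours. No unirradiated skin was analysed here.

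Prostaglandins are short-lived lipid signals made from arachidonic acid, which phospholipases A2 release from membranes. The cyclooxygenases encoded by Ptgs1 and Ptgs2 turn arachidonic acid into prostaglandin H2, and terminal synthases then make prostaglandin E2, D2 or prostacyclin from it. Prostaglandin E2 is oxidised to an inactive form by the enzyme encoded by Hpgd and acts on the receptors EP1 to EP4, encoded by Ptger1 to Ptger4. In skin, ultraviolet light induces Ptgs2, and prostaglandin E2 is known to promote keratinocyte growth and inflammation.

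Each library held 15.4 to 20.9 M recovered reads. The deposited values are variance-stabilised scores on which 0 reads appear as 39. Levels below are normalised reads, that is, the whole reads recovered from those scores divided by a size factor of the library. Fold changes are differences on the log2(value + 1) scale of the deposited score, with their standard error (SE), from a limma fit with mouse as a block, and a gene was called at an adjusted p under 0.05. That scale understates changes of genes with few reads. The 3 comparisons share libraries, so their results are not independent of each other.

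The tissues differed in cell makeup as well as in these genes. Keratinocyte markers (10 genes) summed to 364800 to 774267 normalised reads in CHR, 634183 to 1344990 in PAP and 216084 to 833236 in SCC. Dermal fibroblast markers (8 genes) spanned 144349 to 330580 in CHR, 6717 to 184973 in PAP and 20808 to 549815 in SCC, and macrophage markers (8 genes) spanned 28148 to 44406, 1267 to 6637 and 4701 to 42787. Between PAP and CHR, 8 of 10 keratinocyte markers were higher and 1 lower, 5 of 8 fibroblast markers were lower, and 8 of 8 macrophage, 6 of 8 mast cell and 10 of 10 skeletal muscle markers were lower. None of these markers was at 0 in all 6 libraries of a tissue. In mouse 10 both tumours had low fibroblast sums, of 6717 in the papilloma and 20808 in the carcinoma, the lowest of their groups. In bulk tissue, fewer cells of a type and less RNA per cell cannot be told apart, and the part of cell makeup in the results below was not tested.

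**Figure D1:**
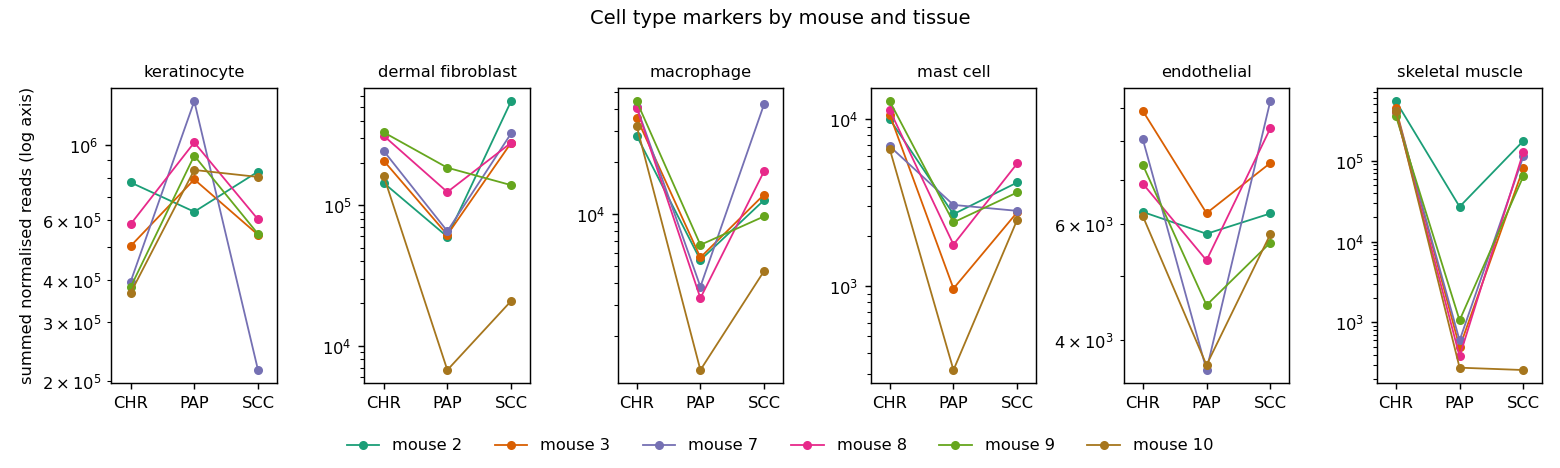
Summed normalised reads (log axis) of 6 cell type marker lists in CHR, PAP and SCC, with a line for each of the 6 mice. Macrophage sums were 28148 to 44406 in CHR and 1267 to 6637 in PAP, and the papilloma of mouse 10 had the lowest fibroblast, macrophage and mast cell sums.

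Ptgs2 and Ptges rose, and Ptger2 and Ptger3 fell, in papillomas relative to irradiated skin. These were 4 of the 10 genes, beside 52.6% of all genes called in this comparison (23.3% higher and 29.3% lower). In carcinomas relative to irradiated skin Ptgs2 and Ptges again rose and Ptgds, Hpgd and Ptger3 fell, which were 5 of 10 beside 38.4% of all genes (15.8% higher and 22.7% lower). Between carcinoma and papilloma limma called 0 of 10, beside 9.85% of all genes (8.75% higher and 1.1% lower), and none of the 10 separated the groups without overlap, as 0.434% of all genes did. In that comparison 4 of the 10 genes (Ptgds, Ptgis, Hpgd and Ptger2) had an unadjusted p under 0.05, as did 24.6% of all genes, and the lowest adjusted p was 0.0838. On the recovered reads limma-voom called 2 of the 10 (Ptgds and Ptger2) and 12% of all genes. The median log2 difference of the 10 genes was -0.17 for PAP against CHR, -0.28 for SCC against PAP and -0.44 for SCC against CHR, where that of all genes was 0.00, -0.02 and -0.02.

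**Figure D2:**
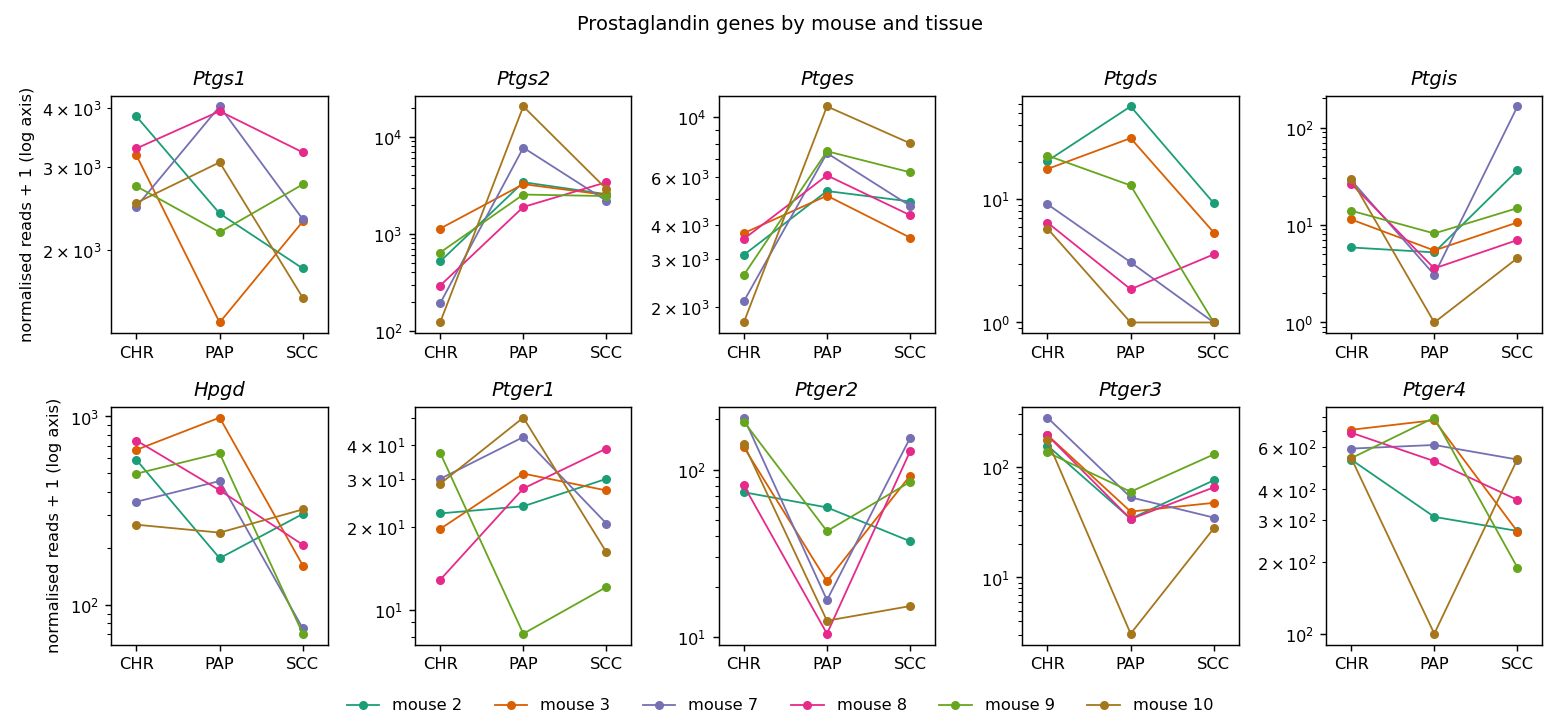
Normalised reads plus 1 (log axis) of the 10 prostaglandin genes in CHR, PAP and SCC, with a line for each of the 6 mice. Ptgs2 rose from CHR to PAP in 6 of 6 mice and Ptger3 fell in 6 of 6, whereas Ptgs1 moved in either direction.

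Ptgs2 encodes the inducible cyclooxygenase and lies on chromosome 1 from 150100031 to 150108227 (+ strand, GRCm38). In CHR it had 518, 1131, 191, 291, 641 and 121 normalised reads in mice 2, 3, 7, 8, 9 and 10. The papillomas of the same mice had 3405, 3252, 7733, 1891, 2540 and 20588, and the carcinomas 2562, 2516, 2189, 3404, 2451 and 2892. The lowest papilloma and the lowest carcinoma stood above the highest irradiated skin, and the carcinomas lay close together while the papillomas spread widely.

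Relative to CHR, Ptgs2 in PAP was up by 3.32 ± 0.55 (log2 ± SE, limma adjusted p = 0.000271, higher in 6 of 6 mice), and the groups did not overlap, as was so for 33.8% of all genes. In SCC it was higher than in CHR by 2.56 ± 0.55 (adjusted p = 0.00312, 6 of 6 mice), again without overlap, which held for 19.9% of all genes. Within a mouse, the ratio of papilloma to irradiated skin ran from 2.88 in mouse 3 to 170 in mouse 10. The mouse with the largest rise was thus the one with the lowest CHR level and the highest PAP level. Its papilloma also set the group mean, which was 6568 ± 7170 (SD, n = 6) with it and 3764 ± 2299 (n = 5) without it. Between SCC and PAP the difference was -0.76 ± 0.55 (adjusted p = 0.438), with the carcinoma lower in 5 of 6 mice.

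Ptgs1, the cyclooxygenase that most tissues express constantly, had a mean of 3004 ± 530 normalised reads in CHR, 2837 ± 1040 in PAP and 2335 ± 599 in SCC (SD, n = 6 each). The groups overlapped, and no comparison passed the test. The estimates were -0.15 ± 0.22 for PAP against CHR (adjusted p = 0.595), -0.22 ± 0.22 for SCC against PAP (adjusted p = 0.584) and -0.37 ± 0.22 for SCC against CHR (adjusted p = 0.2).

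Because exon lengths differ, the 2 cyclooxygenase genes were set side by side as reads per kb of exon. Ptgs2 made up 11.2 ± 7.35% of the summed level in CHR (3.91 to 23.2%), 57.8 ± 18.7% in PAP (28.9 to 85.1%) and 49.7 ± 6.72% in SCC (43.0 to 60.8%). Ptgs1 was therefore the more abundant of the pair in every irradiated skin sample, by 3.31 to 24.6 times. In the tumours neither gene led throughout, since the ratio of Ptgs1 to Ptgs2 spanned 0.176 to 2.46 in PAP and 0.645 to 1.33 in SCC. These shares describe levels within a library and were not tested.

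The start regions of these genes were read from RefSeq (build GRCm38.p6), which held 300 bases for 8 of the 10 genes, 250 before the annotated start and 50 from it onward. Ptgis and Ptger1 had no entry. A total of 5 motifs were searched on both strands. These were the E-box CACGTG, the cyclic AMP response element core ACGTCA, the AP-1 site TGANTCA, the TATA box TATAAA and the GC box GGGCGG. A run of 30 bases with a match is shown for each of Ptgs2 and Ptges, which rose in both tumour types, and of Hpgd and Ptgds, which fell in carcinomas. Each is written in the direction of transcription with the matches in capitals.
Ptgs2 (chr1:150100033-150100062, + strand): agtcaccactACGTCACGTGgagtccgctt
Ptges (chr2:30903333-30903362, - strand): ggtgatcagggtGGGCGGggagtGGGCGGg
Hpgd (chr8:56294544-56294573, + strand): cacggagtgggcTATAAAagctgctgcggc
Ptgds (chr2:25469766-25469795, - strand): gaggccaagccTGACTCAtaaatagggggt

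In Ptgs2 the capitals cover a cyclic AMP response element core and an E-box that share 2 bases, 12 to 21 bases after the first base of the annotated transcript. Ptgs2 was the only one of the 8 genes with either motif, which were found in 7.64% and 7.24% of all 27025 start windows. In Ptges the capitals mark a pair of GC boxes, 53 to 48 and 42 to 37 bases before the RefSeq start used. That start lies inside the span that GENCODE gives the gene (30889471 to 30929863, - strand), not at its 30929863 end. A GC box was present in 5 of the 8 genes (Ptgs2, Ptges, Hpgd, Ptger3 and Ptger4) and in 35.9% of all windows, so that it did not separate genes that rose from genes that fell. Hpgd held the TATA box letters (14.2% of all windows), 4 to 9 bases after the first base of its RefSeq transcript. Ptgds held the AP-1 site (7.93%), 35 to 29 bases before its RefSeq start. The starts of these genes also differ between sources. The run shown for Hpgd lies before its GENCODE start at 56294585, and that for Ptgds lies inside its GENCODE span (25466709 to 25470046, - strand). A match describes letters in a window, and binding was not measured.

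Ptges encodes the inducible membrane-bound synthase that makes prostaglandin E2 downstream of Ptgs2. It lies on chromosome 2 from 30889471 to 30929863 (- strand, GRCm38). Its CHR levels were 3100, 3732, 2088, 3550, 2612 and 1745 normalised reads in mice 2, 3, 7, 8, 9 and 10, its PAP levels 5340, 5133, 7373, 6100, 7492 and 10971, and its SCC levels 4885, 3592, 4707, 4348, 6263 and 8014. All papillomas stood above all irradiated skin, and in mouse 10 both tumours were the highest of their groups, as that animal's papilloma was for Ptgs2.

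The rise of Ptges was 1.31 ± 0.25 in PAP against CHR (limma adjusted p = 0.000671, 6 of 6 mice). In SCC against CHR it was 0.90 ± 0.25 (adjusted p = 0.0117, higher in 5 of 6 mice), and 1 carcinoma, that of mouse 3, lay below its own irradiated skin. Without mouse 9 this second call was lost (adjusted p = 0.0515). In 6 of 6 mice the carcinoma was lower than the papilloma, with a difference of -0.41 ± 0.25, which did not pass the test (adjusted p = 0.337). Of the 10 keratinocyte markers, 8 also rose between CHR and PAP, with a median over the list of 1.51 on the same log2 scale, while Krt10, a keratin of differentiating epidermis, fell (-1.75 ± 0.69, adjusted p = 0.0476) and Krt1 was not called (-1.67 ± 0.92, adjusted p = 0.146).

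Ptgds and Ptgis, which encode the lipocalin-type prostaglandin D2 synthase and the prostacyclin synthase, were near the lower limit of detection. Ptgds had 4.80 to 21.7 normalised reads in CHR, 0 to 55.9 in PAP and 0 to 8.31 in SCC, where mice 7, 9 and 10 had 0 reads. A count of 0 allows up to 3 reads per library by counting error. The carcinoma was lower than CHR in 6 of 6 mice, with a difference of -0.51 ± 0.16 (limma adjusted p = 0.0247). The call was lost without the block (adjusted p = 0.0937) and without mouse 3 (0.0502), mouse 7 (0.0701) or mouse 9 (0.104), while limma-voom on the reads gave -2.39 ± 0.61 (adjusted p = 0.00864).

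Ptgis, whose product is made mainly by vascular and stromal cells, was lower in the papilloma than in CHR in 6 of 6 mice and higher in the carcinoma than in the papilloma in 6 of 6. The medians were 19.3, 3.41 and 11.8 normalised reads in CHR, PAP and SCC. The differences were -0.54 ± 0.26 (adjusted p = 0.098) and 0.69 ± 0.26 (adjusted p = 0.12), neither of which passed the test. The first was called by limma-voom (-2.28 ± 0.85, adjusted p = 0.0383), on log2 of normalised reads plus 1 (-2.17, adjusted p = 0.027) and in a fit of these groups alone (adjusted p = 0.0248). The carcinoma of mouse 7 had 164 normalised reads and the next highest 35.3, and without mouse 7 the carcinoma mean fell from 38.7 to 13.7. That same carcinoma had the highest macrophage (42787), endothelial (9204) and pericyte and smooth muscle (19719) sums and the lowest keratinocyte sum (216084) of its group.

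Hpgd encodes 15-hydroxyprostaglandin dehydrogenase, the enzyme that starts the breakdown of prostaglandin E2, and lies on chromosome 8 from 56294585 to 56321043 (+ strand, GRCm38). CHR had 587, 664, 352, 744, 497 and 266 normalised reads in mice 2, 3, 7, 8, 9 and 10. PAP had 176, 985, 454, 405, 638 and 241, and SCC had 303, 161, 74.2, 208, 69.6 and 321. Papillomas ranged on both sides of irradiated skin, whereas the carcinoma was the lowest of the 3 tissues in mice 3, 7, 8 and 9.

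For Hpgd, the difference of SCC from CHR was -1.24 ± 0.36 (limma adjusted p = 0.0163, lower in 5 of 6 mice), and PAP differed from CHR by -0.19 ± 0.36 (adjusted p = 0.679). Without mouse 8 the SCC call was lost (-1.18, adjusted p = 0.0547), as it was without mouse 9 (-1.08, adjusted p = 0.0568). Between SCC and PAP the difference of -1.05 ± 0.36 missed the threshold (adjusted p = 0.0861). In mice 2 and 10 the carcinoma had more Hpgd than the papilloma, and in the other 4 it had 0.109 to 0.513 of the papilloma level. Leaving out mouse 2 (-1.38, adjusted p = 0.0383) or mouse 10 (-1.32, adjusted p = 0.0293) brought the difference past the threshold.

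The level of Ptges relative to Hpgd, both per kb, sets the gene for making prostaglandin E2 beside the gene for removing it. Irradiated skin had the narrowest range, with a ratio of 2.39 ± 0.27 (2.04 to 2.81). It was 8.85 ± 6.29 in PAP, where mouse 3 had 2.23 and mouse 10 had 19.5, and 17.0 ± 12.9 in SCC, where the lowest was 6.89 and the highest 38.5 (SD, n = 6 each). Every carcinoma and 5 of 6 papillomas stood above the range of irradiated skin. This ratio was computed from genes already known to move and is given without a test.

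**Figure D3:**
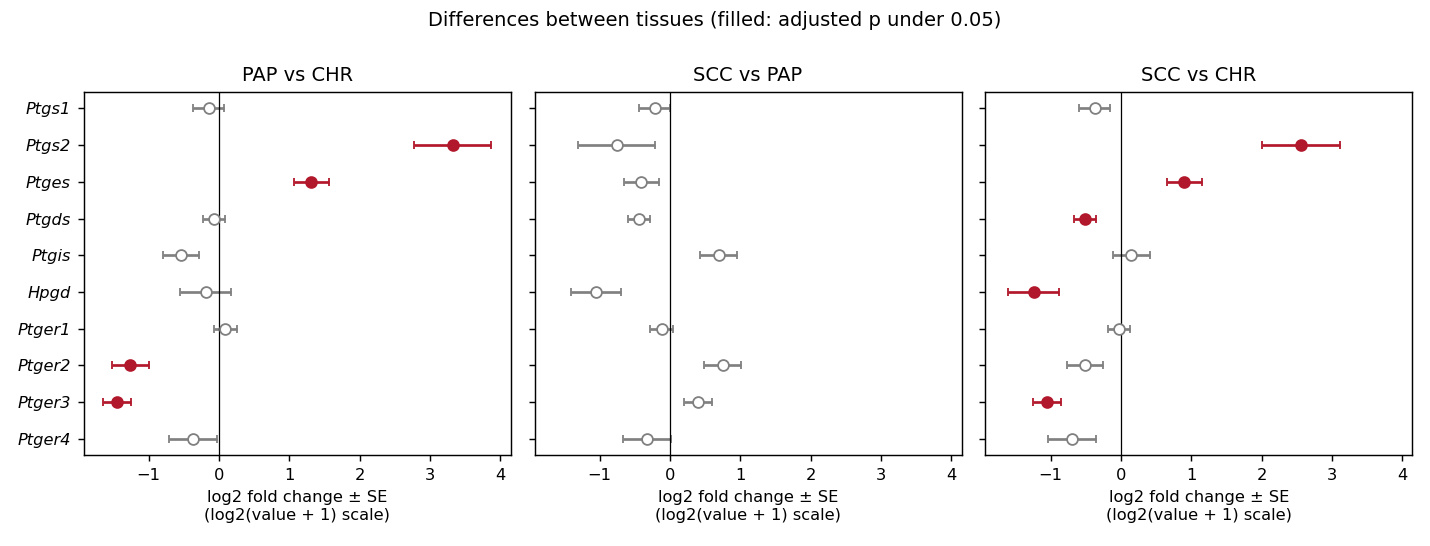
Log2 fold change ± SE (log2(value + 1) scale, n = 6 mice) of the 10 genes in each of the 3 comparisons, filled where the limma adjusted p was under 0.05. Ptgs2 was highest in both tumour types against CHR (3.32 and 2.56), and no gene was filled in SCC against PAP.

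Among the receptors, Ptger3 and Ptger2 fell in papillomas and Ptger4 and Ptger1 did not pass the test in any comparison. EP2 and EP4 raise cyclic AMP in the receiving cell, EP3 mostly lowers it, and EP1 raises calcium. Ptger3 had 155, 194, 279, 193, 135 and 173 normalised reads in CHR in mice 2, 3, 7, 8, 9 and 10. It had 33.1, 38.5, 52.2, 32.8, 58.7 and 2.10 in PAP and 74.8, 46.4, 33.8, 64.4, 129 and 26.9 in SCC. Both tumour groups lay wholly below CHR, and the papilloma of mouse 10 was the lowest sample.

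The difference for Ptger3 was -1.45 ± 0.20 in PAP against CHR (limma adjusted p = 6.72e-05, lower in 6 of 6 mice) and -1.05 ± 0.20 in SCC against CHR (adjusted p = 0.00154, lower in 6 of 6). On recovered reads limma-voom put the differences at -2.43 ± 0.44 and -1.56 ± 0.40. Carcinomas had more Ptger3 than papillomas in 5 of 6 mice, by 0.40 ± 0.20 (adjusted p = 0.249). The gene lies on chromosome 3 from 157566892 to 157645888 (+ strand, GRCm38).

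Ptger2 had 72.3, 135, 203, 79.5, 193 and 141 normalised reads in CHR in the same order of mice, 58.5, 20.6, 15.7, 9.49, 41.9 and 11.5 in PAP and 36.4, 91.1, 154, 128, 83.5 and 14.3 in SCC. CHR and PAP did not overlap, and the carcinomas covered both ranges. The fall in PAP was -1.26 ± 0.26 (limma adjusted p = 0.00118, lower in 6 of 6 mice) and was -2.52 ± 0.50 with limma-voom on reads. In SCC the gene was higher than in PAP in 5 of 6 mice, by 0.75 ± 0.26 (adjusted p = 0.0838). That difference passed the threshold without mouse 2 (0.96, adjusted p = 0.0382), without mouse 10 (0.88, adjusted p = 0.0438) and with limma-voom (1.69 ± 0.51, adjusted p = 0.0491). The carcinoma level was close to that of the papilloma in mouse 10 (14.3 and 11.5) and below it in mouse 2 (36.4 and 58.5).

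Ptger4 had the highest mean level per kb of the EP receptor genes in every tissue. Its means were 599 ± 79.1 normalised reads in CHR, 519 ± 272 in PAP and 358 ± 146 in SCC (SD, n = 6 each). In PAP 5 libraries had 307 to 795 and mouse 10 had 99.7. SCC was lower than CHR in 6 of 6 mice, with a difference of -0.70 ± 0.34 (limma adjusted p = 0.114), a difference that passed the threshold without mouse 10 (-0.84, adjusted p = 0.0152) and in a fit of these groups alone (adjusted p = 0.0209). SCC against PAP was likewise called only without mouse 10 (-0.77, adjusted p = 0.0426), against -0.33 ± 0.34 with that mouse (adjusted p = 0.593). A processed pseudogene, Gm15937, covers 15.3% of the exon bases of Ptger4.

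Ptger1 was low in all tissues, at 24.3 ± 8.67, 29.7 ± 14.8 and 23.2 ± 9.79 normalised reads in CHR, PAP and SCC. Its estimate farthest from 0 was -0.12 ± 0.16, for SCC against PAP (limma adjusted p = 0.705).

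Summed over the EP receptor genes, the level per kb reached 154 ± 20.1 in CHR, against 94.9 ± 42.7 in PAP and 85.4 ± 20.9 in SCC (SD, n = 6 each). Ptger4 made up 58.9 ± 6.79% of it in CHR, 77.8 ± 12.7% in PAP and 61.8 ± 15.8% in SCC. Ptger3 took 21.3 ± 3.53% of it in CHR, 6.17 ± 2.67% in PAP and 14.4 ± 10.6% in SCC, and Ptger2 took 17.0 ± 5.93%, 6.42 ± 5.57% and 18.7 ± 9.50%. The highest Ptger3 share in a papilloma, 8.62%, was below the lowest in CHR, 15.9%. The mean share of Ptger4 was thus highest in papillomas, although in the papilloma of mouse 10 it took 56.3% and Ptger1 took 33.9%. Irradiated skin also had large Ptger4 shares, of 48.7 to 66.8%. The highest single share, 88.7%, was in the carcinoma of mouse 10.

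**Figure D4:**
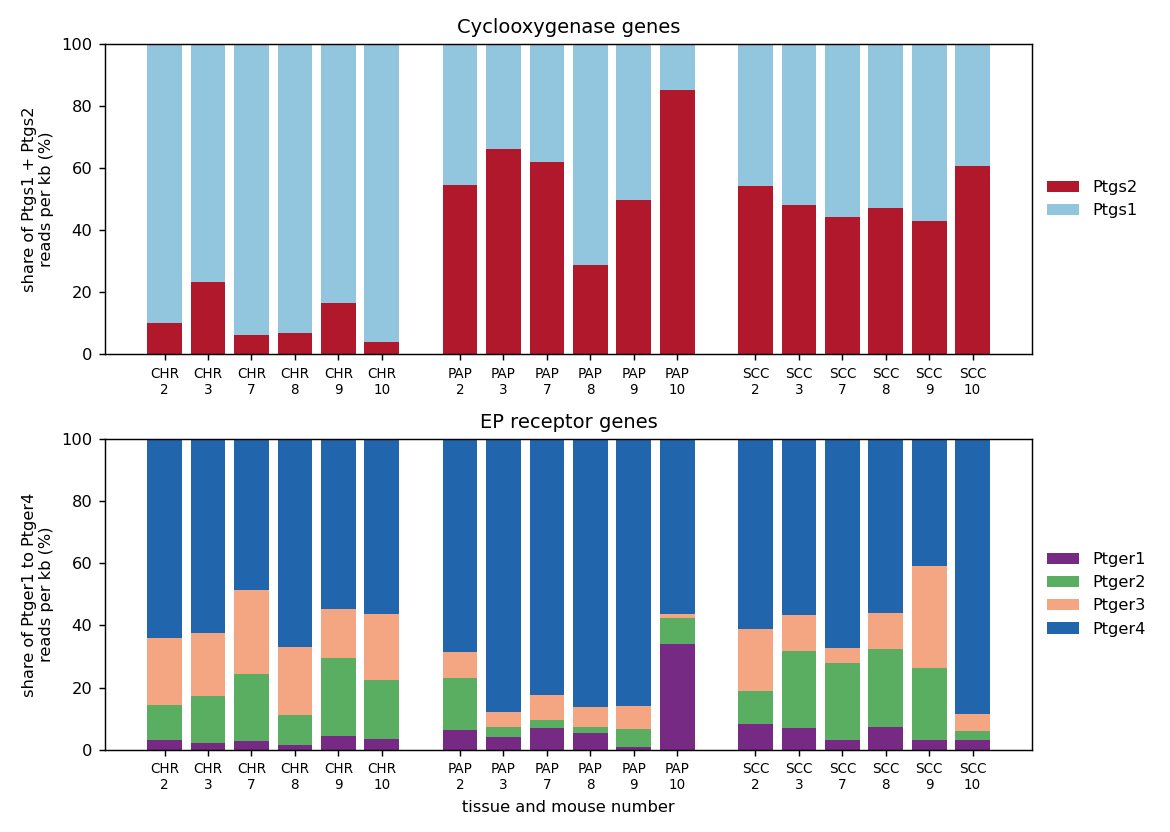
Share (%) of reads per kb taken by Ptgs2 and Ptgs1 (upper panel) and by Ptger1 to Ptger4 (lower panel) in each of the 18 libraries. Ptgs2 took 3.91 to 23.2% in CHR and 28.9 to 85.1% in PAP, and Ptger3 took 15.9 to 26.9% of the receptor level in CHR and 1.39 to 8.62% in PAP.

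The papilloma of mouse 10 stood at an edge of its group for 7 of the 10 genes. It was highest for Ptgs2, Ptges and Ptger1 and lowest for Ptgds, Ptgis, Ptger3 and Ptger4. The carcinoma of the same mouse was at an edge for 8 of 10, highest for Ptges, Hpgd and Ptger4, lowest for Ptgs1, Ptgis, Ptger2 and Ptger3 and tied for lowest, at 0 reads, for Ptgds. The other papillomas and carcinomas were at an edge for 1 to 5 of the 10 genes, ties included. Without this mouse Ptgs2, Ptges, Ptger2 and Ptger3 were still called in PAP against CHR.

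The wider pathway was described by lists of related genes, whose counts stand beside the shares of all genes called. Over all genes 23.3% were higher and 29.3% lower in PAP against CHR. In SCC against CHR these shares were 15.8% and 22.7%, and in SCC against PAP 8.75% and 1.1%. Of 16 genes of the phospholipase A2 family, not all of which supply arachidonic acid, 1 rose and 9 fell from CHR to PAP. Pla2g4d rose by 2.35 ± 0.66 (limma adjusted p = 0.00942), from 167 ± 139 to 1039 ± 706 normalised reads. The secreted enzymes Pla2g2f (-2.36 ± 0.48, adjusted p = 0.00125) and Pla2g2d (-2.19 ± 0.21, adjusted p = 4.08e-06) fell, as did Pla2g7, which degrades platelet-activating factor (-2.06 ± 0.32, adjusted p = 0.000157). Pla2g4a, the cytosolic enzyme usually coupled to cyclooxygenases, was not called (0.27 ± 0.20, adjusted p = 0.282). The counts were again 1 higher and 9 lower in SCC against CHR, but the genes differed. There Pla2g7 was not called (-0.53 ± 0.32, adjusted p = 0.209). Pla2g12a, named after its value was seen, was lower (-0.33 ± 0.12, adjusted p = 0.0388). In SCC against PAP 3 genes (Pla2g7, Pla2g15 and Pla2g16) were higher.

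Of 9 further prostanoid synthases, 3 rose and 2 fell from CHR to PAP. Tbxas1, the thromboxane synthase, fell from 556 ± 168 to 27.4 ± 21.1 normalised reads (-2.87 ± 0.32, limma adjusted p = 1.24e-05) and was higher again in SCC than in PAP (1.34 ± 0.32, adjusted p = 0.0242). The aldo-keto reductase gene Akr1b8 rose (1.57 ± 0.32, adjusted p = 0.00118), and so did Ptges3, the cytosolic prostaglandin E synthase (0.57 ± 0.10, adjusted p = 0.000506), and Ptges2, a membrane-associated one named after its value was seen (0.32 ± 0.10, adjusted p = 0.0178), while Akr1c18 fell (-1.01 ± 0.37, adjusted p = 0.0365). Hpgds, the haematopoietic prostaglandin D2 synthase, had 1955 ± 394 normalised reads in CHR and 1902 ± 899 in PAP (-0.15 ± 0.40, adjusted p = 0.771). In SCC against CHR 2 of the 9 were higher and 2 lower. Of 5 genes for prostaglandin transport and further breakdown, limma called 0 in each of the 3 comparisons. Among them Slco2a1, which carries prostaglandins into cells, had 795 ± 247 normalised reads in CHR and 1460 ± 754 in PAP (0.64 ± 0.34, adjusted p = 0.135).

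Of 7 other prostanoid receptors and nuclear receptors that bind prostanoids or related lipids, 5 fell and 1 rose from CHR to PAP. The fallers included Pparg (-2.99 ± 0.25, limma adjusted p = 1.6e-06), the prostacyclin receptor Ptgir (-2.27 ± 0.30, adjusted p = 4.2e-05) and the prostaglandin F receptor Ptgfr (-1.98 ± 0.29, adjusted p = 9.62e-05). The prostaglandin D2 receptor Gpr44 and the thromboxane receptor Tbxa2r, chosen after their values were seen, fell too (-0.90 ± 0.14 and -0.49 ± 0.14, adjusted p = 0.000213 and 0.0118). Ppard rose by 1.37 ± 0.15 (adjusted p = 1.13e-05). In SCC against CHR 4 were lower and 1 higher, and Ptgir was higher in SCC than in PAP (1.03 ± 0.30, adjusted p = 0.046). Pparg is also expressed by adipocytes and sebocytes, and in PAP against CHR 6 of 7 adipocyte and 8 of 8 sebaceous gland markers were lower.

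**Figure D5:**
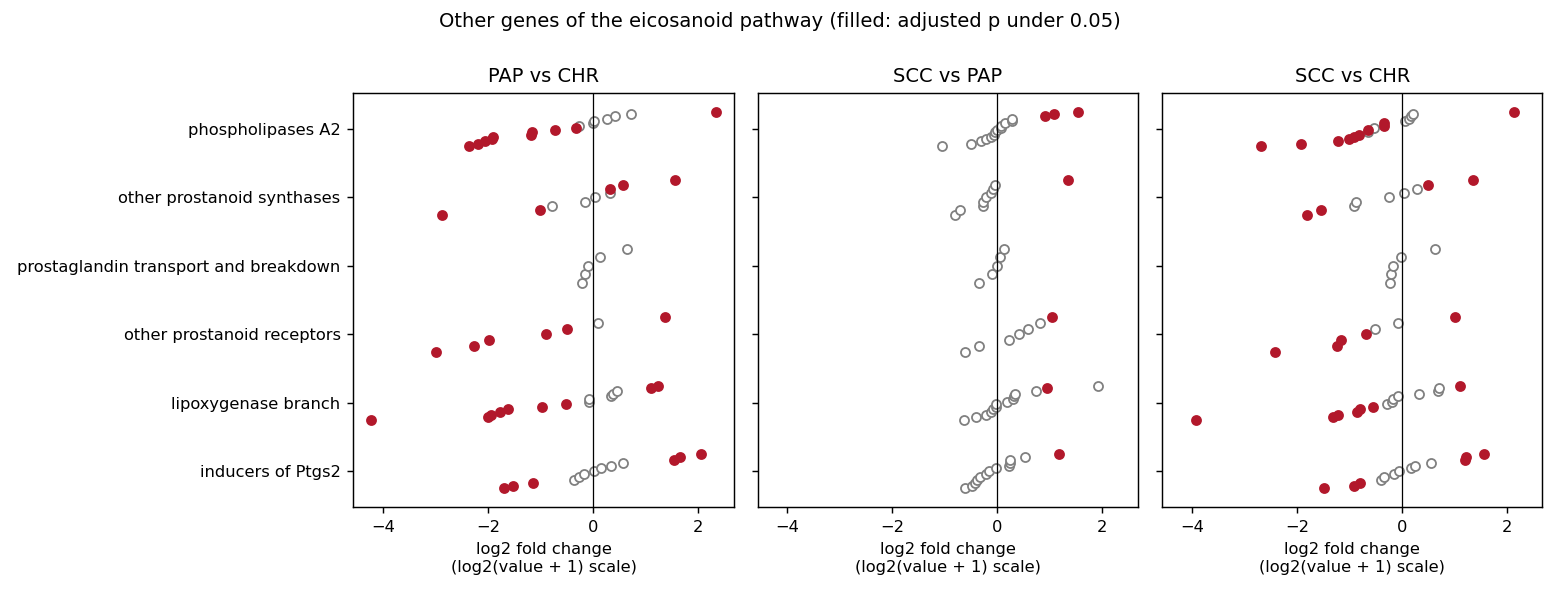
Log2 fold change (log2(value + 1) scale) of each gene of 6 lists from the wider pathway in the 3 comparisons, filled where the limma adjusted p was under 0.05. In PAP against CHR 9 of 16 phospholipases A2 and 5 of 7 other prostanoid receptors were lower, and 0 of 5 transport and breakdown genes were called.

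The lipoxygenase branch competes for the same arachidonic acid and makes leukotrienes and hydroxy fatty acids. Of its 14 genes, 7 fell and 2 rose from CHR to PAP, and in SCC 6 were below and 1 above CHR. Cysltr1, a receptor for cysteinyl leukotrienes, was the 1 gene called between SCC and PAP (0.94 ± 0.23, limma adjusted p = 0.0235). Alox12e, an epidermal lipoxygenase, fell from 2983 ± 1493 to 109 ± 86.5 normalised reads (-4.24 ± 0.40, limma adjusted p = 3.51e-06). Alox5ap, which presents arachidonic acid to 5-lipoxygenase, fell too (-1.94 ± 0.22, adjusted p = 1.49e-05). The leukotriene B4 receptors Ltb4r1 (1.24 ± 0.25, adjusted p = 0.00121) and Ltb4r2 (1.10 ± 0.28, adjusted p = 0.0056) rose, and are named, after their values were seen, as the risers of the list.

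Among 13 genes for signals known to induce Ptgs2 and for their receptors, 3 rose and 3 fell from CHR to PAP. Over all genes 23.3% rose and 29.3% fell, so the list did not stand out by its count of risers. The counts were the same in SCC against CHR, beside 15.8% and 22.7% of all genes, but the genes differed. There Il1r1 was not called (-0.34 ± 0.23, limma adjusted p = 0.266). Ereg, another ligand of the epidermal growth factor receptor named after its value was seen, was lower (-0.79 ± 0.28, adjusted p = 0.0406). In PAP against CHR Ereg was not called (-0.17 ± 0.28, adjusted p = 0.633). The risers in PAP were the epidermal growth factor receptor ligands Hbegf (2.05 ± 0.25, limma adjusted p = 2.59e-05), Areg (1.65 ± 0.27, adjusted p = 0.000227) and Tgfa (1.55 ± 0.25, adjusted p = 0.000219). Btc (-1.70 ± 0.29, adjusted p = 0.000363) and Egf (-1.15 ± 0.14, adjusted p = 2.33e-05), ligands of the same receptor, fell, Egf being named after its value was seen. The cytokines Il1b (0.35 ± 0.52, adjusted p = 0.595), Il1a (0.57 ± 0.30, adjusted p = 0.13) and Tnf (-0.37 ± 0.30, adjusted p = 0.315) were not called. Il1r1, the interleukin-1 receptor, fell in PAP (-1.52 ± 0.23, adjusted p = 0.000135) and was higher in SCC than in PAP (1.18 ± 0.23, adjusted p = 0.0121).

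Across the 18 libraries and 12701 genes with a mean of at least 50 normalised reads, the levels most like those of Ptgs2 on a log2 scale were those of Fbxl5 (r = 0.94), Rbl1, Fosl1 (both 0.93), Aldh1l2 and Alkbh5 (both 0.92). With the group means removed these were 0.75, 0.76, 0.70, 0.75 and 0.74. Fosl1 encodes a subunit of the AP-1 transcription factor and Rbl1 a relative of the retinoblastoma protein. For Hpgd the nearest were Gnptg (0.90), Ttc38 and Fam69a (both 0.89), and Slc26a2 and Wnt3 (both 0.88), or 0.83, 0.88, 0.84, 0.82 and 0.84 with group means removed. The libraries come from 6 mice and share tissue type and cell makeup, so these values describe likeness and carry no test.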

How the data were processed

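Groups and mouse numbers were taken from the sample titles. The authors aligned reads to mm10 with MOSAIK, counted them per gene with HTSeq, normalised and applied a variance-stabilising transformation. The paper also describes a batch correction, which equalised batch medians for each gene. A whole-number expression score was deposited, and whether it includes that correction is not known here. The recovery of reads assumed a size factor for each library and no scaling of single genes. Versions, annotation release and strand setting are not given in the sources used here. Of 14542 entries, 21 with a number for a name (at most 0.236% of a library) were left out. Reads were recovered by inverting the transformation (zero level 39.12, size factors 0.835 to 1.18), and 98.1% of values came out as whole reads exactly. Among values under 100 it was 99.9%. The zero level and size factors were fitted to these same values. At high scores, rounding to whole reads makes agreement likely in any case, so only low scores bear on the inversion. No count model was used as the main test, since the deposited values are not counts.

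The main test was limma 3.58.1 (R 4.3.3) on log2(score + 1) with group and mouse as terms, over 18 libraries and 14521 genes, two-sided, with Benjamini-Hochberg adjustment. It was tested on simulated data. Same-numbered samples come from the same animal, so the block was kept, although the correlation of their deviations ranged from -0.245 to 0.507. Alternatives were limma-voom on recovered reads, log2 of normalised reads plus 1, a pseudocount of 10, filters at 10 reads, other scalings, fits without the block, of 2 groups only or with a robust variance trend, the study's cutoffs, and leaving out each mouse. All genes of the set are named; of each wider list, the 4 called genes with the largest change in a comparison could be named, plus uncalled ones. The genes and lists were chosen with earlier results of these data known. Exon lengths and coordinates are from GENCODE for GRCm38. Figures used matplotlib 3.10.9. Counting error is the only error that depth describes.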

Additional observations from a re-analysis of the deposited data

Results flagged for a closer look

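In 30 groups of 6 samples (10 genes in 3 tissues), the gap of the highest or lowest sample to its nearest neighbour was set against the whole range and judged by Dixon's critical value for 6 samples. Chance alone passes it in about 1 in 20 groups, and 2 of the 30 groups did so. Ptgs2 had 20588 normalised reads in the papilloma of mouse 10 and 7733 in the next, a gap of 0.688 of the range. That papilloma also had the lowest fibroblast (6717) and macrophage (1267) marker sums of its group. Ptgis had 163.7 normalised reads in the carcinoma of mouse 7 and 35.3 in the next, a gap of 0.802 of the range, in a library with the highest macrophage sum (42787) of the carcinomas. Whether the marker levels bear on either value was not tested.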

How the results depend on the processing

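The counts of called genes among the 10 were 4 for PAP against CHR, 0 for SCC against PAP and 5 for SCC against CHR. Without each mouse in turn they stayed at 4 in the first (3 to 5 over the other settings) and ran from 0 to 3 and from 2 to 6 in the others, with the 3 reached without mouse 10 (2 without mouse 2) and the 2 without mouse 9. For SCC against PAP, limma-voom on recovered reads gave 2 and the study's cutoffs, which are looser, gave 5. For SCC against CHR, a filter of 10 reads in every library, which left 6 of the 10 genes, gave 3 and the study's cutoffs 8. Without the replicate block the counts were 4, 0 and 4, and Ptgds in SCC against CHR (adjusted p = 0.0937) was the only call of the 10 genes that the block changed. Over all settings and single genes, 442 estimates kept their direction and side of the threshold, 12 newly passed it, 7 lost it and 7 changed sign, all of them uncalled and near 0. Without each mouse in turn these ran, for PAP against CHR, from -0.32 to 0.05 for Ptgs1 (above 0 without mouse 3), from -0.21 to 0.01 for Ptgds (above 0 without mouse 10) and from -0.33 to 0.05 for Hpgd (above 0 without mouse 2). For SCC against CHR they ran from -0.10 (without mouse 7) to 0.33 for Ptgis and from -0.15 to 0.08 for Ptger1 (0.01, 0.08 and 0.03 without mice 7, 9 and 10). Few reads limit Ptgds, Ptgis and Ptger1.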
